A study of Mus musculus with 24 samples.

Results

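The phagocyte NADPH oxidase was followed through 7 of its genes in 4 myeloid populations sorted from mouse colon lamina propria (LP) and from colon tumours. The members were the rows of the expression table whose Ensembl identifier belongs to Cybb, Cyba, Ncf1, Ncf4, Rac1, Rac2 or Hvcn1, and 7 of the 17301 genes in the table met that rule. All 7 were among the 12878 genes tested. LP cells came from C57BL/6J mice, given in the labels as strain C57/BL and as healthy tissue, and tumour cells from Apc Min/+ mice, given as APC/Min. Apc Min/+ mice carry a truncating mutation of the tumour suppressor Apc and develop intestinal adenomas. Female and male Apc Min/+ mice of 6 to 8 weeks drank dextran sodium sulphate (DSS), a colitis-inducing polymer, over 1 week, and the tissue was taken 4 weeks after that, when the mice were 3 to 4 months old. By the methods of the study the C57BL/6J controls had DSS at a different concentration, which the label "healthy" does not mention. Genotype, tissue and any difference in DSS therefore change together between LP and tumour and cannot be told apart. The populations were F4/80hi MHCIIhi macrophages, F4/80hi MHCIIlow macrophages, Ly6Chi MHCII- monocytes and Ly6Ghi CD11b+ neutrophils, with 3 libraries per population and tissue and 24 in all. Each library held cells pooled from 13 to 15 mice, and roman numerals name the pools as the labels number the donors.

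The oxidase moves electrons from cytosolic NADPH across the membrane of the phagosome or the cell surface onto oxygen, which gives superoxide. Its membrane part is a heterodimer of gp91phox, encoded by Cybb, which carries the electrons, and p22phox, encoded by Cyba, which stabilises gp91phox and offers the docking site for the cytosolic subunits. On activation the organiser p47phox (Ncf1) and the phosphoinositide-binding p40phox (Ncf4) move to the membrane together with a GTP-loaded Rac, encoded by Rac1 or by the blood-cell gene Rac2. The voltage-gated proton channel Hv1 (Hvcn1) lets protons follow the electrons, and so offsets the charge that the oxidase moves. Neutrophils are known for the strongest oxidative burst, and loss of a core subunit causes chronic granulomatous disease, in which colitis is common.

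In the GENCODE M21 annotation of GRCm38 the genes lie on chromosomes 5, 8, 15 and X. Cybb spans positions 9435252 to 9487771 on chromosome X, minus strand, and Cyba 122424776 to 122432930 on chromosome 8, minus strand. Ncf1 (134220053 to 134229625, minus strand), Rac1 (143503634 to 143528036, minus strand) and Hvcn1 (122206804 to 122242297, plus strand) lie on chromosome 5. Ncf4 (78244801 to 78262580, plus strand) and Rac2 (78559167 to 78572783, minus strand) lie 296.6 kb apart on chromosome 15, with 10 protein-coding genes between them. The libraries did not mark the strand, so reads from exons that overlap a gene on the other strand cannot be told apart from reads of that gene. Such overlap covered 51.4% of the exon bases of Rac1 (with Daglb), 44.2% of those of Hvcn1 (with Tctn1) and 11.1% of those of Ncf1 (with Gtf2ird2), and none of those of the other members. The length of Rac1 used in the deposited values was 2652 bases against 4496 in M21, so the share that applied to these values is not known for Rac1.

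RefSeq promoters on GRCm38.p6, running from 250 bases before to 50 bases after the gene start, matched 3 members, and those of Cybb and Ncf1 are shown because these were the subunit genes that rose in more than 1 tumour population. Capitals mark the matches to a composite element of ETS and IRF factors (GGAA, then any 2 bases, then GAAA) and to CCAAT, searched on both strands along with GAGGAAG (a PU.1 element) and TATAAA, and no match of these motifs overlapped another. Both sequences run 5′ to 3′ on the minus strand.
Cybb, chrX:9469275-9469574: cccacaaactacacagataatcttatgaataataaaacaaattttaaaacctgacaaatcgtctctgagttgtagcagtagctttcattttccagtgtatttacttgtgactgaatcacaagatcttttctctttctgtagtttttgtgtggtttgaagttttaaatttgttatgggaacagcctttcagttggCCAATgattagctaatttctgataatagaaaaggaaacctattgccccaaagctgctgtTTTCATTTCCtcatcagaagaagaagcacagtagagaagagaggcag
Ncf1, chr5:134229576-134229875: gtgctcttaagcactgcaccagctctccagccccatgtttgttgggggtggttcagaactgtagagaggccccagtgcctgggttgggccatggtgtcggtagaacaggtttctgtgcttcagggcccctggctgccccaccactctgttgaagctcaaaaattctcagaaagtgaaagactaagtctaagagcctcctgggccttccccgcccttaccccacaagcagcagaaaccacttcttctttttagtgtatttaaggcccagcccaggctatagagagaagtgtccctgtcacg
The Cybb promoter held 1 such composite element on its opposite strand, a motif present in 2.72% of 32817 RefSeq promoters, and 1 CCAAT starting 56 bases before the gene start, present in 37.4%. The RefSeq start of Cybb lies within the gene span that M21 gives. The Ncf1 promoter, and that of Cyba at chr8:122432891-122433190, held none of the 4 motifs, of which GAGGAAG and TATAAA were each present in 13.6% of promoters. A match describes letters in these windows and is not evidence that a factor binds there.

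The libraries held 12.8 M to 41.7 M reads on genes, the median library 26.4 M. The library sizes used by the authors to scale the values were 0.466 to 0.682 of those reads in neutrophils and 0.981 to 1.51 in the other populations, which raises neutrophil values relative to a scaling by plain read totals. Scaling by summed reads moved the median log2 fold change of all genes from -0.24 to -1.05 for LP neutrophils against monocytes and from -0.48 to -1.87 for tumour neutrophils against macrophages, and a neutrophil value of a member is therefore given on both scalings where it moves by over 1.5 times, whereas other genes are given on the deposited scaling unless stated. The share of lower genes among those called moved with it, from 55.8% to 78.6% and from 58.9% to 81.3%. For tumour against LP it moved from 59.2% to 84% in neutrophils, from 47.7% to 67% in monocytes and from 58.9% to 47.8% in MHCIIhi macrophages. For tumour macrophages against monocytes it moved from 57.7% to 40% (MHCIIhi) and from 57.6% to 31.2% (MHCIIlow), and for LP MHCIIlow against MHCIIhi macrophages from 72.4% to 36.9%. The sorted populations carried their defining markers. The summed level of 7 macrophage markers was 3690 to 7395 RPKM in macrophages and 186 to 733 in the other cells, 5 monocyte markers summed to 770 to 3150 in monocytes, 188 to 645 in neutrophils and 3.16 to 21.4 in macrophages, and 7 neutrophil markers to 11604 to 30620 in neutrophils against 23.4 to 301 elsewhere. The summed level of 4 B and plasma cell markers was 349 to 1282 RPKM in LP neutrophils and 156 to 570 in LP monocytes, but 0.580 to 19.8 and 0.178 to 4.67 in their tumour counterparts. The 4 fibroblast markers were also higher in every LP group (6.43 to 51.3 against 0.00724 to 1.57), the 7 epithelial markers summed to 4.95 to 316, the 3 measured eosinophil markers to 20.6 to 42.2 in neutrophils, and the T cell and dendritic cell lists reached at most 5.93 and 8.83. In bulk libraries fewer cells of a type and less RNA per cell cannot be told apart.

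Tumour cells of every population had more Ncf1 transcript than their LP counterparts. On the deposited scaling Cybb, Ncf4 and Hvcn1 passed in some populations, and Cyba, Rac1 and Rac2 in none. The test was limma on log2 RPKM over all 24 libraries, with Benjamini-Hochberg adjustment over all genes tested and a threshold of 0.05. In MHCIIhi macrophages 2 of the 7 members rose and none fell, against 19.5% of all genes that passed in either direction. In MHCIIlow macrophages 4 of 7 rose and none fell, against 23.3% of all genes. In monocytes 1 of 7 rose, against 9.29%. In neutrophils 2 rose and 1 fell, against 32.2%. The members' median log2 fold change was 0.23, 1.15, 0.23 and 0.22 in these 4 comparisons, beside a median of all genes of 0.00, 0.06, 0.00 and -0.12. The neutrophil count depended on the scaling. With summed reads 4 members passed there, Ncf1 higher (0.87) and Ncf4 (-0.88), Rac1 (-2.26) and Hvcn1 (-1.38) lower, while Cybb did not pass. Of the 12878 genes tested, 799 were then called higher and 4206 lower.

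Several members also differed between populations within each tissue, with neutrophils rich in Ncf1, Ncf4 and Rac2 and poor in Cybb. LP MHCIIlow macrophages were poor in Cybb too (mean 6.52 log2 RPKM), and their libraries overlapped those of LP neutrophils (mean 5.86). Neutrophils were compared with macrophages as the mean of the MHCIIhi and MHCIIlow subsets. Each count on the deposited scaling stands beside the share of all genes that passed, and several lie near that share. In LP, 5 of the 7 members were higher and 1 lower in neutrophils than in monocytes, where 54.5% of all genes passed, and 4 were higher and 2 lower than in macrophages, where 67.8% passed. In tumours, 3 were higher and 2 lower in neutrophils than in monocytes (58.1% of all genes passed), and 4 were higher and 3 lower than in macrophages (73.9%). With summed reads these comparisons called 5, 5, 6 and 7 members, in the same order. Ncf1, Ncf4 and Rac2 were higher and Cybb lower in each, and every other member called was lower in neutrophils. Of 12878 genes tested, 1697 were then higher and 6229 lower, 2328 and 6991, 1340 and 7252, and 1904 and 8258. Macrophages differed from monocytes in LP by 3 members for the MHCIIhi subset (20.1% of all genes) and 5 for the MHCIIlow subset (29.5%), and in tumours by 3 members for each subset (32.1% and 32.0%). Between the macrophage subsets 4 members differed in LP (7.70%) and 0 in tumours (1.13%), where 1 member, Cybb, had an unadjusted p under 0.05 in limma and 0 passed with voom on recovered reads or with summed reads. Comparisons within a tissue share libraries, so their counts are not independent.

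**Figure D1:**
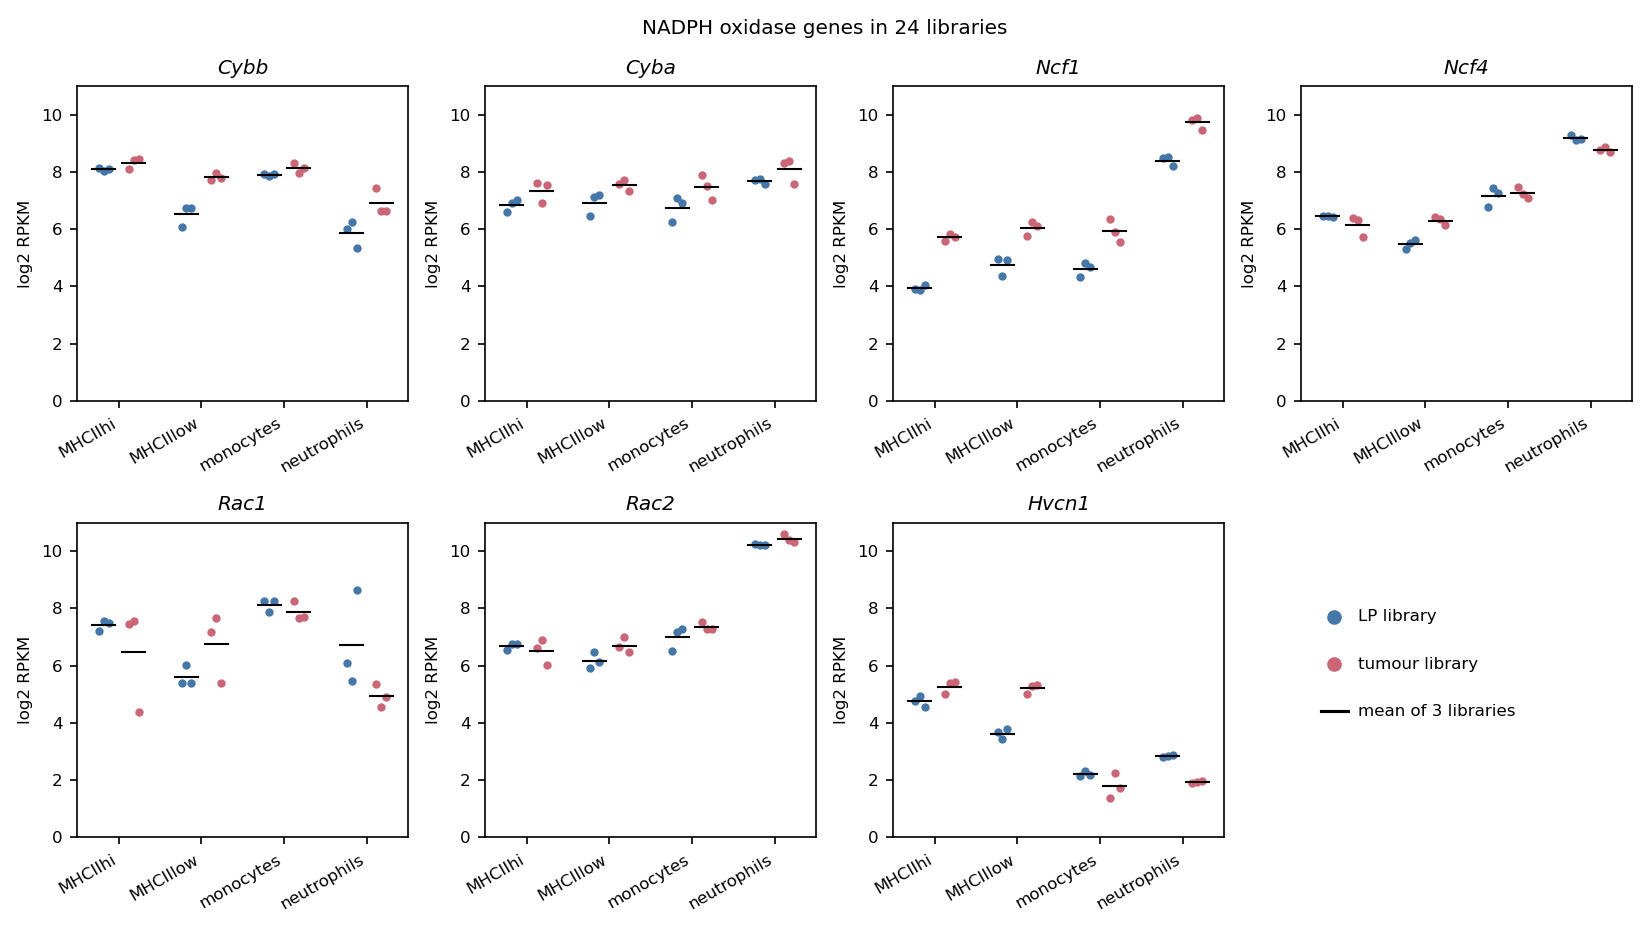
log2 RPKM of the 7 oxidase genes (vertical axes) in each of the 24 libraries, by sorted population (horizontal axes) and tissue (blue for LP, red for tumour). Points are libraries and lines the mean of 3. Ncf1, Ncf4 and Rac2 were highest in neutrophils, Hvcn1 in macrophages, and Rac1 was the gene with the widest spread inside a group.

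Cybb, the electron-carrying subunit, was highest in MHCIIhi macrophages and monocytes and lowest in LP neutrophils. In MHCIIhi macrophages, Cybb stood at 8.15, 8.03 and 8.09 log2 RPKM in LP pools III, IV and V and at 8.10, 8.43 and 8.44 in tumour pools I, V and VII. The monocyte values were 7.94, 7.86 and 7.92 in LP pools III, IV and V and 8.32, 7.94 and 8.15 in tumour pools I, II and V. These 4 groups lay close together, and the difference of tumour from LP passed in neither population, with a log2 fold change of 0.23 ± 0.23 (standard error (SE), n = 3 per group) in both and adjusted p = 0.549 and 0.621. MHCIIlow macrophages held 6.07, 6.73 and 6.75 log2 RPKM of Cybb in LP pools II, III and IV and 7.72, 7.96 and 7.78 in tumour pools I, V and VII. The LP libraries all lay below the tumour libraries, and Cybb was 2.47-fold higher in the tumour subset (log2 1.30 ± 0.23, adjusted p = 0.000245). Neutrophils held 6.02, 6.23 and 5.34 in LP pools III, IV and V and 7.42, 6.63 and 6.64 in tumour pools I, II and V. Their groups did not overlap either, and Cybb was 2.05-fold higher in tumour neutrophils (log2 1.03 ± 0.23, adjusted p = 0.00157), a call that was lost with library sizes as summed reads (log2 0.57, adjusted p = 0.0644) and with a fit on these neutrophil libraries alone (adjusted p = 0.0906).

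Within LP, Cybb in neutrophils stood at 0.243 times its monocyte level (log2 -2.04 ± 0.23, adjusted p = 2.64e-07), and in MHCIIlow macrophages it was lower than in monocytes (log2 -1.39 ± 0.23, adjusted p = 9.46e-05) and than in MHCIIhi macrophages (log2 -1.57 ± 0.23, adjusted p = 0.00017). Tumour neutrophils were lower than tumour monocytes by less (log2 -1.24 ± 0.23, adjusted p = 9.59e-05), and what separated the neutrophil change from the monocyte change, 0.80 ± 0.32 on the log2 scale, missed the threshold (adjusted p = 0.122). With summed reads the deficit of neutrophils against monocytes widened to -2.87 in LP and to -2.37 in tumours, and Cybb was -2.38 and -2.65 against macrophages, where the deposited scaling gave -1.44 and -1.18. Among the 8 groups in order of mean level, Cybb overlapped its neighbour everywhere except below LP MHCIIhi macrophages and below tumour MHCIIlow macrophages.

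Cyba, the stabilising partner of gp91phox, passed in none of the comparisons of tumour with LP. LP MHCIIhi macrophages held 6.61, 6.90 and 7.02 log2 RPKM of Cyba in pools III, IV and V, and the tumour subset 7.59, 6.90 and 7.53 in pools I, V and VII. LP monocytes held 6.24, 7.08 and 6.93 in pools III, IV and V, and tumour monocytes 7.89, 7.50 and 7.02 in pools I, II and V. The tumour and LP libraries overlapped in both populations, with adjusted p = 0.221 and 0.102. For MHCIIlow macrophages the values were 6.46, 7.12 and 7.18 in LP pools II, III and IV and 7.57, 7.72 and 7.34 in tumour pools I, V and VII. These groups did not overlap, and yet the log2 fold change of 0.62 ± 0.27 missed the threshold (adjusted p = 0.104). Neutrophils held the most Cyba on the deposited scaling, with 7.70, 7.76 and 7.56 in LP pools III, IV and V and 8.32, 8.38 and 7.59 in tumour pools I, II and V. Every neighbour in the order of the 8 group means overlapped.

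The excess of Cyba in neutrophils depended on the scaling. In LP it was 1.90-fold above monocytes (log2 0.93 ± 0.27, adjusted p = 0.00637) and 1.73-fold above macrophages (0.79 ± 0.23, adjusted p = 0.00514), and in tumours 1.57-fold above macrophages (0.65 ± 0.23, adjusted p = 0.0161). Against tumour monocytes the value of 0.63 missed the threshold (adjusted p = 0.0515) and passed with the donor number as a replicate block (0.63, adjusted p = 0.0428), with median centring (1.07, adjusted p = 0.0023) and without tumour monocyte pool I (0.83, adjusted p = 0.0203) or tumour neutrophil pool V (0.88, adjusted p = 0.0122), among other settings, but turned to -0.51 with summed reads and to -0.49 with quantile normalization. With summed reads the 3 values that passed became 0.10, -0.15 and -0.82, the last past the threshold in the opposite direction (adjusted p = 0.00203), and quantile normalization gave 0.07, -0.40 and -1.03. Leaving out LP monocyte pool III lowered the LP monocyte comparison to 0.67 (adjusted p = 0.0523), and leaving out tumour neutrophil pool I or II lowered the tumour macrophage comparison to 0.54 (adjusted p = 0.0814) or 0.51 (adjusted p = 0.0948). Because both membrane subunits are read from the same library, their log2 difference does not move with the scaling. It does depend on the gene lengths used, and that of Cyba was 758 bases in the values against 1039 in M21. The sign of the difference within a group therefore rests on that length, whereas comparisons of it between groups do not. Cybb exceeded Cyba by 1.07 to 1.54 in LP MHCIIhi macrophages and by 0.51 to 1.53 in the tumour subset, whereas in neutrophils the difference was -2.23 to -1.53 (LP) and -1.75 to -0.90 (tumour). In MHCIIlow macrophages it was -0.43 to -0.39 in LP and 0.15 to 0.44 in tumours.

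Ncf1, which encodes the organiser p47phox, rose in tumours in all 4 populations. In MHCIIhi macrophages, Ncf1 stood at 3.89, 3.89 and 4.05 log2 RPKM in LP pools III, IV and V and at 5.59, 5.84 and 5.74 in tumour pools I, V and VII. MHCIIlow macrophages had 4.94, 4.37 and 4.91 in LP pools II, III and IV and 5.75, 6.24 and 6.11 in tumour pools I, V and VII. The tumour libraries lay above the LP libraries in both subsets, by 3.43-fold (log2 1.78 ± 0.20, adjusted p = 1.91e-06) and 2.45-fold (log2 1.29 ± 0.20, adjusted p = 5.95e-05). Monocytes had 4.34, 4.80 and 4.66 of Ncf1 in LP pools III, IV and V and 6.34, 5.91 and 5.54 in tumour pools I, II and V. In neutrophils the values were 8.49, 8.51 and 8.19 in LP pools III, IV and V and 9.82, 9.90 and 9.47 in tumour pools I, II and V. Again no tumour library fell into the LP range, and the differences were 2.52-fold in monocytes (log2 1.33 ± 0.20, adjusted p = 0.000206) and 2.53-fold in neutrophils (log2 1.34 ± 0.20, adjusted p = 3.43e-05). The call held in each population under every alternative that was run, and with summed reads the neutrophil value was 0.87. Neutrophils are rich in Ncf1, and the summed level of the 7 neutrophil markers was 33.4 to 40.6 RPKM in LP and 38.5 to 52.8 in tumour MHCIIhi macrophages, 23.4 to 35.0 and 46.0 to 50.9 in MHCIIlow macrophages and 99.1 to 137 and 160 to 301 in monocytes. Of these markers 1 rose in MHCIIhi macrophages (S100a9), 3 in MHCIIlow macrophages (Mmp8, Ly6g and Retnlg) and 0 in monocytes, and Ly6g stood at 3 reads or fewer in every MHCIIhi library. Their part in the Ncf1 differences was not tested.

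Neutrophils held 13.9-fold more Ncf1 than monocytes in LP (log2 3.79 ± 0.20, adjusted p = 7.11e-12) and in tumours (log2 3.80 ± 0.20, adjusted p = 6.12e-12), and 16.6-fold and 14.4-fold more than macrophages. With summed reads the log2 differences were 2.97 (LP) and 2.67 (tumour) from monocytes and 3.11 and 2.38 from macrophages, all past the threshold. In LP the MHCIIhi subset was the lowest of all groups, below monocytes (log2 -0.66 ± 0.20, adjusted p = 0.0213) and below MHCIIlow macrophages, which were 0.80 ± 0.20 higher (adjusted p = 0.015). The first call was lost without LP MHCIIhi pool III or IV (-0.63 in each, adjusted p = 0.0659 and 0.0687) and without LP monocyte pool IV or V (-0.55 and -0.63, adjusted p = 0.0952 and 0.067). The second was lost without LP MHCIIhi pool III or IV (0.77 in each, adjusted p = 0.0598 and 0.058) and without LP MHCIIlow pool II or IV (0.70 and 0.71, adjusted p = 0.0765 and 0.0694). Gtf2ird2, which shares 11.1% of the Ncf1 exon bases on the other strand, moved with Ncf1 at a much lower level, with 0.02 log2 RPKM in LP MHCIIhi macrophages, 3.08 in LP neutrophils and 4.85 in tumour neutrophils (means of 3). The part of this overlap in the Ncf1 values was not tested.

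Ncf4, which encodes the phosphoinositide-binding subunit p40phox, followed a different course from Ncf1 in tumours. LP MHCIIhi macrophages held 6.46, 6.47 and 6.44 log2 RPKM of Ncf4 in pools III, IV and V, and the tumour subset 6.37, 6.30 and 5.73 in pools I, V and VII. For MHCIIlow macrophages, Ncf4 stood at 5.31, 5.53 and 5.62 in LP pools II, III and IV and at 6.41, 6.34 and 6.14 in tumour pools I, V and VII. The MHCIIlow libraries separated, with Ncf4 1.76-fold higher in tumours (log2 0.81 ± 0.17, adjusted p = 0.00135), whereas the tumour MHCIIhi libraries all lay below those of LP without passing (log2 -0.32 ± 0.17, adjusted p = 0.211). Monocytes held 6.76, 7.42 and 7.28 in LP pools III, IV and V and 7.48, 7.23 and 7.10 in tumour pools I, II and V. Neutrophils held 9.30, 9.12 and 9.16 in LP pools III, IV and V and 8.78, 8.88 and 8.68 in tumour pools I, II and V. The monocyte groups overlapped, and the neutrophil groups did not, although the tumour difference of -0.41 ± 0.17 missed the threshold (adjusted p = 0.0688). It passed with summed reads (log2 -0.88, adjusted p = 5.59e-05), with quantile normalization (log2 -0.59, adjusted p = 0.00699), in a fit on these libraries alone (adjusted p = 0.0367) and without tumour pool VII (adjusted p = 0.0341). Tumour pool VII has no neutrophil library, so only the spread shared by all groups changed there.

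Neutrophils held 4.11-fold more Ncf4 than monocytes in LP (log2 2.04 ± 0.17, adjusted p = 5.67e-09) and 2.85-fold more in tumours (log2 1.51 ± 0.17, adjusted p = 2.62e-07), the latter lost with quantile normalization (0.26, adjusted p = 0.151). With summed reads these were 1.21 and 0.38 on the log2 scale, both past the threshold. Against macrophages the excess was 9.34-fold in LP (log2 3.22) and 5.91-fold in tumours (log2 2.56), which became 2.28 and 1.09 on the log2 scale with summed reads. Both macrophage subsets lay below monocytes in both tissues, with log2 fold changes of -0.70 (MHCIIhi) and -1.67 (MHCIIlow) in LP and -1.14 and -0.97 in tumours, and all 4 differences passed. The log2 difference of Ncf4 from Ncf1 within a library, which scaling does not move, was 2.39 to 2.58 in LP MHCIIhi macrophages against -0.01 to 0.79 in the tumour subset, and 2.43 to 2.62 in LP monocytes against 1.14 to 1.56 in tumour monocytes. In neutrophils it was 0.62 to 0.97 in LP and -1.04 to -0.79 in tumours, so that Ncf1 exceeded Ncf4 per length in all 3 tumour neutrophil libraries. That sign rests on the lengths in the values, 3663 bases for Ncf1 and 2021 for Ncf4, whereas comparisons between groups do not. In MHCIIlow macrophages the ranges of 0.37 to 1.15 in LP and 0.03 to 0.66 in tumours overlapped.

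Rac2, the GTPase made mainly by blood cells, was the most abundant member in neutrophils per length. LP neutrophils held 10.26, 10.21 and 10.20 log2 RPKM of Rac2 in pools III, IV and V, and tumour neutrophils 10.60, 10.39 and 10.34 in pools I, II and V. Monocytes had 6.51, 7.18 and 7.27 in LP pools III, IV and V and 7.51, 7.27 and 7.29 in tumour pools I, II and V. The neutrophil and monocyte libraries lay far apart, and neutrophils held 9.42-fold more Rac2 in LP (log2 3.24 ± 0.21, adjusted p = 1.96e-10) and 8.48-fold more in tumours (log2 3.08 ± 0.21, adjusted p = 2.54e-10). For MHCIIhi macrophages, Rac2 stood at 6.55, 6.76 and 6.75 in LP pools III, IV and V and at 6.63, 6.89 and 6.03 in tumour pools I, V and VII. MHCIIlow macrophages held 5.90, 6.46 and 6.13 in LP pools II, III and IV and 6.65, 6.99 and 6.47 in tumour pools I, V and VII. Neutrophils exceeded the macrophages by 13.9-fold in LP (log2 3.79) and 14.2-fold in tumours (log2 3.83). With summed reads the log2 differences of neutrophils were 2.41 and 1.95 from monocytes and 2.85 and 2.36 from macrophages, in LP and tumours, all past the threshold. No tumour comparison of Rac2 passed, the nearest being MHCIIlow macrophages (log2 0.54 ± 0.21, adjusted p = 0.073), where it passed with summed reads (0.55, adjusted p = 0.0379), quantile normalization, array weights, voom, without LP MHCIIlow pool III (0.69, adjusted p = 0.0385) and without tumour pool VII (0.65, adjusted p = 0.0267).

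Rac2 was lower in LP MHCIIlow macrophages than in LP monocytes (log2 -0.82 ± 0.21, adjusted p = 0.00588), in tumour MHCIIhi macrophages than in tumour monocytes (-0.84 ± 0.21, adjusted p = 0.00413) and in tumour MHCIIlow macrophages than in tumour monocytes (-0.65 ± 0.21, adjusted p = 0.0221). The last was lost without tumour MHCIIlow pool I (-0.63, adjusted p = 0.0593) or VII (-0.54, adjusted p = 0.101), without tumour monocyte pool I (-0.58, adjusted p = 0.0853) and with summed reads (-0.24, adjusted p = 0.331). With quantile normalization the 3 values became -0.49, -0.45 and -0.15 and none passed (adjusted p = 0.0755, 0.103 and 0.611), and in fits on only the libraries compared the first and second missed the threshold (adjusted p = 0.0671 and 0.0502). The lowest libraries for Cyba, Ncf1, Ncf4 and Rac2 in LP monocytes were all of pool III.

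Rac1, the widely expressed GTPase, differed more between libraries of a group than any other member. LP neutrophil pool V held 8.64 log2 RPKM of Rac1 against 6.09 and 5.45 in pools III and IV. Tumour pool VII held 4.37 in MHCIIhi macrophages, where pools I and V held 7.47 and 7.56, and 5.41 in MHCIIlow macrophages, where they held 7.18 and 7.68. They did not rest on few reads, with 22785 reads in LP neutrophil pool V against 4323 and 1562, and 1594 in tumour MHCIIhi pool VII against 12899 and 22116. The other groups were tighter. LP MHCIIhi macrophages held 7.21, 7.54 and 7.49 and LP MHCIIlow macrophages 5.40, 6.03 and 5.38 log2 RPKM of Rac1, monocytes 8.26, 7.87 and 8.25 in LP and 8.27, 7.65 and 7.69 in tumours, and tumour neutrophils 5.35, 4.57 and 4.90, in the pool order used above. Daglb, the overlapping gene on the other strand, ranged from 2.60 to 3.25 in LP neutrophils, 4.99 to 5.16 in tumour MHCIIhi macrophages and 4.35 to 4.60 in tumour MHCIIlow macrophages. The part of this overlap in the Rac1 values was not tested.

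With an SE of 0.74 on the log2 scale, no tumour comparison of Rac1 passed. The log2 fold change was -1.79 in neutrophils (adjusted p = 0.0711), 1.15 in MHCIIlow macrophages (adjusted p = 0.296), -0.95 in MHCIIhi macrophages (adjusted p = 0.436) and -0.26 in monocytes (adjusted p = 0.897). Leaving out tumour pool VII turned the MHCIIhi value to 0.10 and brought MHCIIlow macrophages to 1.82 (adjusted p = 0.0304) and neutrophils past the threshold (-1.79, adjusted p = 0.0124). That pool has no neutrophil library, so the neutrophil value stayed and only the shared spread changed. Leaving out LP neutrophil pool IV also brought neutrophils past the threshold (-2.43, adjusted p = 0.0256), as did summed reads (-2.26, adjusted p = 0.0154). Tumour neutrophils held 0.131 times the Rac1 of tumour monocytes (log2 -2.93 ± 0.74, adjusted p = 0.00214), a difference that passed under every alternative and was -4.06 with summed reads. LP MHCIIlow macrophages held less than LP monocytes (log2 -2.53 ± 0.74, adjusted p = 0.0141). The difference between LP neutrophils and monocytes, -1.40 ± 0.74 (adjusted p = 0.118), became -2.35 (adjusted p = 0.00802) without LP neutrophil pool V and -2.22 (adjusted p = 0.0102) with summed reads. Tumour neutrophils also lay below tumour macrophages (log2 -1.67 ± 0.64, adjusted p = 0.0247), although the libraries overlapped and the call was lost without tumour MHCIIhi pool I (-1.42, adjusted p = 0.0581) or V (-1.40, adjusted p = 0.0597), tumour MHCIIlow pool V (-1.44, adjusted p = 0.0572) and tumour neutrophil pool II (-1.49, adjusted p = 0.0873) or V (-1.65, adjusted p = 0.061), with median centring (-1.05, adjusted p = 0.136), in a fit on only the libraries compared (adjusted p = 0.0971) and with voom on recovered reads (adjusted p = 0.0865). With summed reads it was -3.15 (adjusted p = 9.19e-05).

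Rac2 made up 97.4 to 98.3% of the summed Rac1 and Rac2 level per length in tumour neutrophils and 74.7 to 96.4% in LP neutrophils, the low value being pool V. In monocytes the share was 22.8 to 38.1% in LP and 37.2 to 43.3% in tumours. LP MHCIIhi macrophages held 36.8 to 38.7% and LP MHCIIlow macrophages 57.5 to 62.7%. In the tumour macrophages pool VII stood alone, at 75.9% in the MHCIIhi and 67.6% in the MHCIIlow subset, where the remaining libraries lay between 35.8 and 41%. These shares rest on the Rac1 length of 2652 bases in the values (4496 in M21) and on exons that Rac1 shares with Daglb. Which of the Rac genes led in monocytes and macrophages is therefore not settled.

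**Figure D2:**
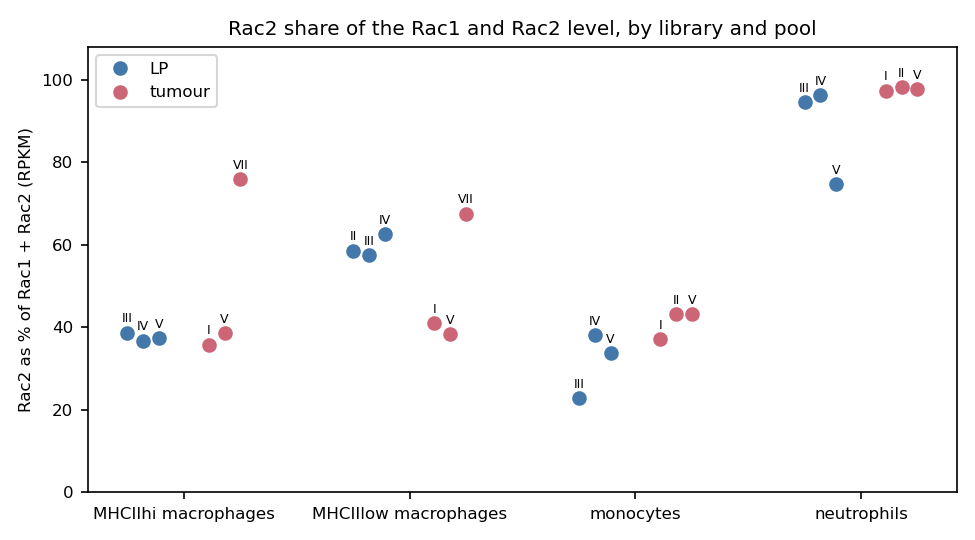
Rac2 as a percentage of the summed Rac1 and Rac2 RPKM (vertical axis) in each library, by population (horizontal axis) and tissue (blue for LP, red for tumour), with the pool printed at each point. Neutrophil libraries lie at 74.7% or above, and tumour pool VII lies apart from pools I and V in both macrophage subsets.

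Hvcn1, the proton channel, was the member with the clearest macrophage pattern, and its direction in tumours differed between cell types. In MHCIIhi macrophages, Hvcn1 stood at 4.75, 4.94 and 4.56 log2 RPKM in LP pools III, IV and V and at 4.99, 5.38 and 5.44 in tumour pools I, V and VII. MHCIIlow macrophages held 3.67, 3.42 and 3.78 in LP pools II, III and IV and 5.00, 5.30 and 5.32 in tumour pools I, V and VII. Both subsets had more in tumours, by 2.99-fold in the MHCIIlow subset (log2 1.58 ± 0.18, adjusted p = 2.24e-06) and by 1.43-fold in the MHCIIhi subset (log2 0.52 ± 0.18, adjusted p = 0.0479). The second call was a narrow one and was lost without LP MHCIIhi pool III (0.52, adjusted p = 0.106) or V (0.43, adjusted p = 0.184), without tumour MHCIIhi pool V (0.47, adjusted p = 0.138) or VII (0.44, adjusted p = 0.174), with no filter on low values (adjusted p = 0.0685), with median centring (adjusted p = 0.0767) and in a fit on these libraries alone (adjusted p = 0.0761). Neutrophils held 2.82, 2.83 and 2.87 log2 RPKM of Hvcn1 in LP pools III, IV and V and 1.91, 1.92 and 1.96 in tumour pools I, II and V. The groups were narrow and apart, and Hvcn1 fell by 0.91 on the log2 scale in tumour neutrophils (SE 0.18, adjusted p = 0.00069). Monocytes held 2.16, 2.31 and 2.18 in LP pools III, IV and V and 1.39, 2.24 and 1.74 in tumour pools I, II and V, which overlapped (log2 -0.42 ± 0.18, adjusted p = 0.161). Without tumour monocyte pool II that value was -0.65 (adjusted p = 0.0267).

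The LP neutrophils, in which Hvcn1 was higher, also had a higher summed level of B and plasma cell markers, and B cells are known to express Hvcn1. Most of that sum was Jchain. Cd79a, a B cell receptor subunit, stood at 1.71, 2.60 and 2.56 log2 RPKM in LP neutrophil pools III, IV and V and at -1.35, -1.54 and 1.38 in tumour pools I, II and V, and Jchain, of plasma cells, at 8.82, 8.41 and 10.31 against -2.46, 4.26 and 2.06. Of the B and plasma cell markers Jchain and Cd79b were called lower in tumour neutrophils, and Cd79a was not. Cd79b stood at 0.67, 0.87 and 2.77 in LP pools III, IV and V and at -7.33, -2.49 and 1.55 in tumour pools I, II and V. The B cell gene Ms4a1 stood at -3.19, -0.67 and -0.96 against -9.45, -4.60 and 0.19, the highest being tumour pool V. Among the tumour neutrophil libraries pool V had the most Cd79a and pool II the most Jchain. Hvcn1 stood at 1.91, 1.92 and 1.96 log2 RPKM in tumour pools I, II and V. The part of B cell transcripts in the Hvcn1 difference was not tested. The neutrophil call missed the threshold with voom on recovered reads (log2 -0.91, adjusted p = 0.0562) and was larger with summed reads (-1.38, adjusted p = 2.98e-05). Tctn1, which overlaps 44.2% of the Hvcn1 exon bases on the other strand, stayed between -2.03 and 0.63 log2 RPKM in all libraries and was at 0.15 and 0.38 in LP and tumour neutrophils (means of 3). The part of this overlap in the Hvcn1 values was not tested.

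Across populations, tumour macrophages held 11.2-fold (MHCIIhi, log2 3.48 ± 0.18, adjusted p = 2.14e-11) and 10.7-fold (MHCIIlow, log2 3.41 ± 0.18, adjusted p = 3.23e-11) more Hvcn1 than tumour monocytes. The LP subsets held 5.80-fold and 2.65-fold more than LP monocytes, and the LP MHCIIhi subset more than the MHCIIlow subset (log2 of MHCIIlow against MHCIIhi -1.13 ± 0.18, adjusted p = 0.000455). Neutrophils lay below the macrophages, with log2 fold changes of -1.35 in LP and -3.31 in tumours, or -2.29 and -4.78 with summed reads. LP neutrophils exceeded LP monocytes by 0.62 ± 0.18 (adjusted p = 0.00631) on the deposited scaling, which turned to -0.20 (adjusted p = 0.414) with summed reads.

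**Figure D3:**
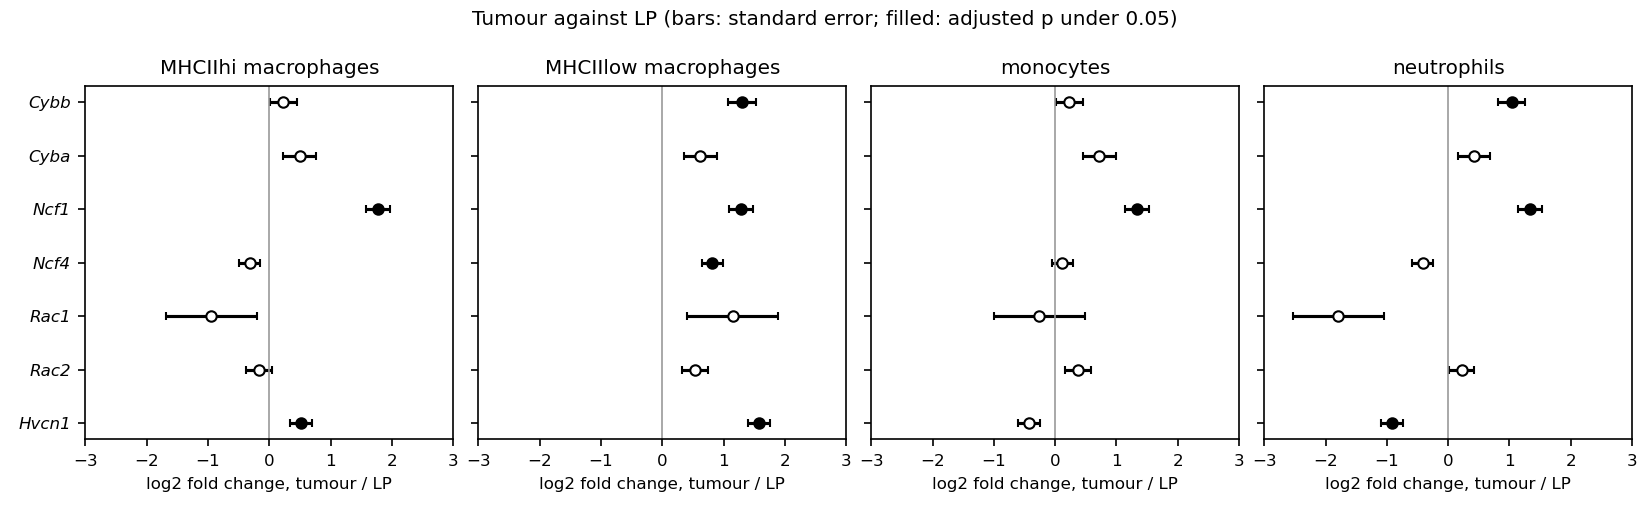
log2 fold change of tumour against LP (horizontal axes, deposited scaling) of the 7 members in each population, with bars of 1 standard error from limma and filled points where the adjusted p was under 0.05. Ncf1 is filled in all 4 panels, Hvcn1 lies right of 0 in both macrophage panels and left of 0 in neutrophils (-0.91), and the widest bars belong to Rac1.

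The tumour effect, meaning the log2 fold change of tumour against LP, was compared between populations to ask whether the members responded alike. Between MHCIIlow and MHCIIhi macrophages 2 of 7 members differed, against 1.46% of all genes. Ncf4 responded more in the MHCIIlow subset by 1.14 ± 0.24 (adjusted p = 0.02) and Hvcn1 by 1.06 ± 0.25 (adjusted p = 0.0427), while the 1.07 ± 0.32 of Cybb missed the threshold (adjusted p = 0.112). For Ncf4 the call was lost without LP MHCIIhi pool IV (1.13, adjusted p = 0.0533), tumour MHCIIhi pool VII (0.93, adjusted p = 0.0548) or tumour MHCIIlow pool V (1.11, adjusted p = 0.0586). For Hvcn1 it was lost without any of LP MHCIIhi pools III, IV and V (1.06, 0.97 and 1.16), LP MHCIIlow pools II and III (1.08 and 0.96), tumour MHCIIhi pools I and VII (0.92 and 1.15) and tumour MHCIIlow pools V and VII (1.01 in each), with adjusted p between 0.0544 and 0.124. In a fit on the macrophage libraries alone neither passed (adjusted p = 0.066 and 0.0729). Between neutrophils and monocytes 0 members differed, against 9.11% of all genes. There, limma gave an unadjusted p under 0.05 for 2 members, Cybb and Ncf4, voom called 0, and summed reads called 1, Ncf4 (-0.84, adjusted p = 0.00838).

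Between neutrophils and macrophages the tumour effect of 2 members differed, against 26.0% of all genes. Hvcn1, which rose in tumour macrophages and fell in tumour neutrophils, differed by -1.96 ± 0.22 (adjusted p = 2.87e-06), and that call held under every alternative. Ncf4 differed by -0.66 ± 0.21 (adjusted p = 0.0239), which was lost without LP neutrophil pool III or tumour neutrophil pool V (-0.61 in each, adjusted p = 0.0616 and 0.0582) and with median centring (-0.36, adjusted p = 0.24). The macrophage side of this Ncf4 value is the mean of 0.81 in the MHCIIlow and -0.32 in the MHCIIhi subset. The neutrophil value of -0.41 lay near that of the MHCIIhi subset. The tumour effect of Ncf1 differed by -0.20 ± 0.24 (adjusted p = 0.579), with a 95% interval of -0.70 to 0.30, and passed with quantile normalization (-0.89, adjusted p = 0.012) and with summed reads (-0.73, adjusted p = 0.0176).

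**Figure D4:**
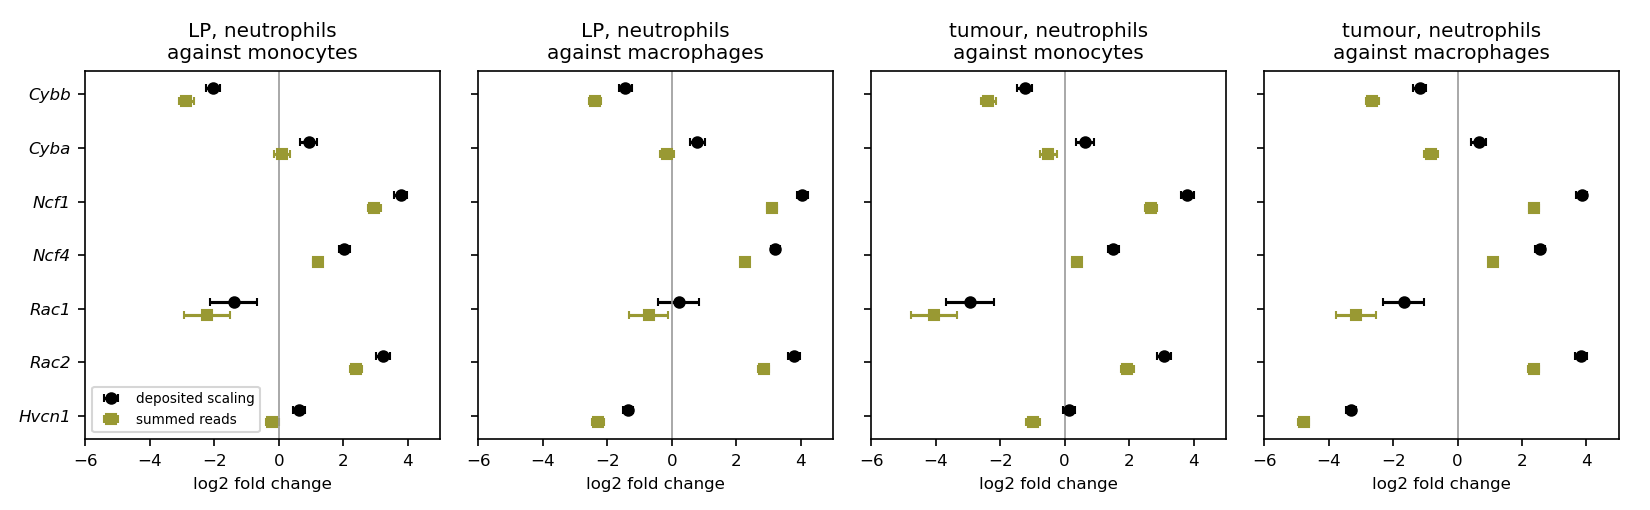
log2 fold change of neutrophils against monocytes and against macrophages (mean of the MHCIIhi and MHCIIlow subsets) in each tissue (horizontal axes) for the 7 members. Black circles show the deposited scaling and olive squares library sizes as summed reads, with bars of 1 standard error. Ncf1, Ncf4 and Rac2 lie right of 0 and Cybb left of 0 on both scalings in all 4 panels. Cyba crosses 0 in 3 of them, Hvcn1 in both monocyte panels and Rac1 in the LP macrophage panel.

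The genes that load and unload Rac were read from fixed lists, whose counts stand beside the 19.5, 23.3, 9.29 and 32.2% of all genes called for tumour against LP in MHCIIhi macrophages, MHCIIlow macrophages, monocytes and neutrophils. Of 9 Rac exchange factors 8 were tested, and Dock2, the main one of leukocytes, rose in tumour MHCIIhi macrophages (log2 0.51 ± 0.15, adjusted p = 0.0222), monocytes (0.68 ± 0.15, adjusted p = 0.00683) and neutrophils (0.82 ± 0.15, adjusted p = 0.000403). Vav3 fell by 1.95 in tumour MHCIIhi macrophages. The list had 1 rise and 2 falls in MHCIIhi macrophages, 3 and 2 in MHCIIlow macrophages, 1 and 0 in monocytes and 2 and 0 in neutrophils (1 and 2 with summed reads), with medians of 0.01, 0.34, 0.15 and 0.20 beside the medians of all genes given above. With median centring the MHCIIhi rise of Dock2 was 0.46 (adjusted p = 0.0518), and with summed reads the neutrophil rise was 0.35 (adjusted p = 0.102). Of the 7 Rac GTPase-activating proteins and GDP dissociation inhibitors measured, 2, 4, 3 and 2 rose in these comparisons, and 3 fell in neutrophils, with medians of 0.07, 0.59, 0.02 and -0.42. Arhgap25, which turns Rac off in phagocytes, rose in both tumour macrophage subsets (1.51 ± 0.17 and 1.45 ± 0.17) and fell by 0.79 in tumour neutrophils. Arhgdib, a GDP dissociation inhibitor, rose in tumour monocytes (0.86 ± 0.19) and neutrophils (1.08 ± 0.19). Neutrophils exceeded LP monocytes by 4.23 ± 0.17 in Arhgap25 and by 1.49 ± 0.15 in Dock2, and tumour neutrophils exceeded tumour macrophages by 2.36 ± 0.13 in Dock2 and by 2.49 ± 0.17 in Arhgdib.

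Of 12 kinases and lipid kinases that act on the oxidase 10 were tested, with 3 rises and 1 fall in tumour MHCIIhi macrophages, 5 and 1 in MHCIIlow macrophages, 1 and 0 in monocytes and 2 and 4 in neutrophils (0 and 5 with summed reads), with medians of 0.27, 0.60, 0.15 and -0.29. Pik3cg, the catalytic subunit of PI3K gamma, rose in the MHCIIhi (1.63 ± 0.31) and MHCIIlow (1.40 ± 0.31) subsets while Pik3r5, its p101 regulatory subunit, fell by 1.98 and 2.10. Pak1, a kinase activated by Rac, rose in both subsets (1.18 ± 0.30 and 1.48 ± 0.30) and fell by 0.98 in neutrophils, where it missed the threshold with quantile normalization and median centring. Prkcb, a kinase that phosphorylates p47phox, rose by 0.77 ± 0.22 in tumour neutrophils on the deposited scaling and was at 0.30 (adjusted p = 0.288) with summed reads. Of the 8 transcription factors listed for oxidase genes, Nfe2l2 rose in the tumour MHCIIhi (1.18 ± 0.16) and MHCIIlow (0.73 ± 0.16) subsets, and Spi1, which encodes PU.1, fell by 1.15 in MHCIIhi macrophages (SE 0.38, adjusted p = 0.0407). In tumour neutrophils 3 of the 8 factors fell and 0 rose, a share near the 32.2% of all genes called there. They were Elf1 (-1.27 ± 0.18), Irf1 (-0.90 ± 0.24) and Cebpa, the last named after its values were seen, and the median of the list was -1.02. Irf8, needed for monocyte and macrophage lineages, was lower in LP neutrophils than in LP monocytes (-3.31 ± 0.19) and than in LP macrophages (-4.12 ± 0.17).

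Of the enzymes that remove superoxide and peroxide all 19 were tested, and 2 rose and 7 fell in tumour MHCIIhi macrophages, 3 rose and 2 fell in MHCIIlow macrophages, 3 rose and 1 fell in monocytes and 5 rose and 4 fell in neutrophils, the last being 1 and 5 with summed reads. The medians were -0.21, 0.00, 0.36 and 0.39. The peroxiredoxin Prdx5 rose in both macrophage subsets (0.95 ± 0.26 and 1.52 ± 0.26), and the thioredoxin reductase Txnrd1 fell by 2.34 and 0.89. The glutathione synthesis genes Gclm, in MHCIIhi macrophages, and Gclc, in MHCIIlow macrophages, fell by 2.58 and 1.32. Glutathione peroxidase Gpx1 rose in tumour monocytes (1.02 ± 0.25) and neutrophils (1.42 ± 0.25). Between cell types 6 were higher and 9 lower in LP neutrophils than in LP macrophages (4 and 12 with summed reads), where 67.8% of all genes were called, with glutathione reductase Gsr 3.37 ± 0.24 and Prdx5 3.67 ± 0.23 higher and catalase Cat (-4.33 ± 0.25) and the peroxiredoxin Prdx1 (-3.88 ± 0.20) lower. In tumours Gsr was 3.46 ± 0.24 and Prdx6 3.39 ± 0.14 higher in neutrophils than in macrophages, and Cat was lower (-3.75 ± 0.25).

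Of 10 further oxidase genes 8 were in the table and 3 passed the filter. Cybc1, a chaperone of gp91phox, had group means between 4.51 and 5.11 log2 RPKM and passed in LP neutrophils against macrophages alone (0.59 ± 0.17, adjusted p = 0.00523), a value that turned to -0.35 (adjusted p = 0.0473) with summed reads and to -0.01 with quantile normalization. Duox2, the dual oxidase of epithelium, and Duoxa2 lie below the level set for naming and were named after their values were seen. Duox2 rose in tumour monocytes to a mean of -0.57 log2 RPKM, and Duox2 and its partner Duoxa2 were higher in tumour neutrophils than in tumour macrophages. The summed epithelial markers were 104 to 316 RPKM in tumour monocytes, 151 to 307 in tumour neutrophils and 7.49 to 193 in tumour macrophages. Their part in the Duox2 values was not tested.

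Some genes ran closely with a member over the 24 libraries. The measure was Pearson's r over 5269 genes, given as a description since libraries of a group share their cell type. Ncf1 was matched best by Ogt (r = 0.978), Ncf4 by Adprh (0.983), Rac2 by Selenon (0.985), Hvcn1 by Olfml3 (0.968), Cyba by Sh3bgrl3 (0.932), Cybb by Psap (0.916) and Rac1 by Yrdc (0.894). Next came Hcar2 and Snx10 for Ncf1, Lmnb1 and Fam32a for Ncf4, Wbp1l and Stat6 for Rac2, Tgfbr1 and Tpp1 for Hvcn1, Pfn1 and Nat9 for Cyba, Lpcat3 and Adgre4 for Cybb, and Tmed7 and Clptm1l for Rac1. Among members, Ncf4 and Rac2 had r = 0.957 and Ncf1 and Rac2 0.91, while Cybb and Rac2 had -0.587, and Cybb and Cyba, whose products form 1 heterodimer, had -0.219.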

How the data were processed

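RNA of sorted cells was amplified with a modified SMART-Seq2 protocol, which does not mark the strand, and sequenced as read pairs. The authors aligned reads with STAR 2.3 to GRCm38, counted genes with featureCounts 1.5 and deposited log2 RPKM values (reads scaled by gene length and by library sizes from edgeR). Whether reads in overlapping genes were counted is not given in the sources used here. Whole reads were recovered from these values for 100% of 17301 genes (tolerance 0.01 reads), with an added prior of 0.25 reads on average.

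The 17 comparisons were fitted with limma 3.58.1 (R 4.3.3; empirical Bayes with trend) on the deposited values of all 24 libraries, 8 group means, for 12878 genes whose mean reached 1 RPKM in some group, and p-values were adjusted within each comparison. The exact permutation test of 3 against 3 cannot go below 0.1 and was not used. The script was tested on simulated data. Members, lists and tests were chosen with earlier results of these data known. Named were all members, at most the 2 largest called rises and 2 largest called falls of a list in tumour against LP and in neutrophils against monocytes or macrophages (higher group at 10 RPKM or more), and the 3 genes most alike each member by Pearson's r over the libraries (10 RPKM or more in some group). Within a tissue, libraries with the same donor number in the labels were taken as coming from 1 pool, which the labels do not state. Deviations from the group means in the 29 such pairs had r of -0.0661 to 0.255 (median 0.0169). Alternatives were log2(RPKM + 1), no filter, a filter at 5 RPKM, quantile normalization, median centring, only the libraries compared, array weights, a replicate block, voom on recovered reads and leaving out each library. Library sizes as summed reads and leaving out tumour pool VII were added after seeing the data. Pool VII holds macrophage libraries only, so leaving it out moves neutrophil and monocyte p-values through the shared spread alone. The paper gives 3 independent experiments with pooled mice, and how the donor numbers map onto these is not given. The p-values measure the spread between the libraries of a group, estimated for each gene over all 8 groups together. Some genes of the lists are not reported here.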

Additional observations from a re-analysis of the deposited data

Results flagged for a closer look

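The effect of the tumour on 2 members differed between populations under the same contrast, by limma's test of the difference itself. Between MHCIIlow and MHCIIhi macrophages, Ncf4 differed by 1.14 ± 0.24 (SE, log2, adjusted p = 0.02), with 0.81 in the MHCIIlow and -0.32 in the MHCIIhi subset, and Hvcn1 by 1.06 ± 0.25 (adjusted p = 0.0427), with 1.58 and 0.52. Of all genes 1.46% differed there, and the calls held in 19 of 23 alternatives for Ncf4 and in 10 of 23 for Hvcn1. Between neutrophils and macrophages, Ncf4 differed by -0.66 ± 0.21 (adjusted p = 0.0239), with -0.41 in neutrophils, and Hvcn1 by -1.96 ± 0.22 (adjusted p = 2.87e-06), with -0.91 in neutrophils. The macrophage side was the mean of both subsets, and the -0.41 of Ncf4 lay near the -0.32 of the MHCIIhi subset. Here 2 of 7 members lie near the 26.0% of all genes that differed, and the calls held in 26 of 29 alternatives for Ncf4 and in 29 of 29 for Hvcn1.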

How the results depend on the processing

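Of 119 member values, 56 passed, and 39 of these kept their direction and threshold under every alternative. The members called for tumour against LP were 1 in MHCIIhi macrophages with no filter, with median centring, with only the libraries compared and without tumour pool VII (1 to 2 with 1 library left out), 2 in monocytes with array weights (1 to 2 with 1 library left out) and 5 in neutrophils without tumour pool VII. For the MHCIIlow minus MHCIIhi difference they were 1 with no filter, 0 with only the libraries compared, 1 with summed reads and 1 without pool VII (0 to 2 with 1 library left out), for neutrophils minus monocytes 1 with summed reads, and for neutrophils minus macrophages 1 with median centring and 4 with summed reads (1 to 3 with 1 library left out). With summed reads 16 of the 119 values changed sign. These were Cyba in neutrophils (tumour against LP -0.05, LP against macrophages -0.15, tumour against monocytes -0.51 and macrophages -0.82), Hvcn1 in neutrophils against monocytes (LP -0.20, tumour -0.99), Rac1 in LP neutrophils against macrophages (-0.72), Ncf4 in tumour against LP monocytes (-0.04), Rac2 in tumour against LP neutrophils (-0.25), tumour MHCIIhi macrophages against monocytes (Cyba 0.15, Ncf1 0.06), tumour MHCIIlow macrophages against monocytes (Cybb 0.10) and MHCIIhi macrophages (Hvcn1 0.07), and the tumour effect of neutrophils minus macrophages (Cybb -0.27, Rac2 -0.50) or monocytes (Ncf1 -0.30). With quantile normalization 11 did, Cyba in neutrophils (LP against macrophages -0.40, tumour against monocytes -0.49 and macrophages -1.03), Rac2 in tumour against LP neutrophils (-0.30), Rac1 in LP neutrophils against macrophages (-0.85), tumour macrophages against monocytes (Cyba 0.38 and Ncf1 0.15 in MHCIIhi, Cybb 0.28 in MHCIIlow) and the tumour effect of neutrophils minus macrophages (Cybb -0.23, Rac2 -0.59) or monocytes (Ncf1 -0.50). With median centring 5 did, Cyba (-0.11) and Ncf1 (-0.08) in tumour MHCIIlow macrophages against monocytes and the tumour effect of neutrophils minus macrophages (Ncf1 0.11, Cyba 0.16) or monocytes (Rac2 0.01). With array weights 4 did, Rac1 in tumour MHCIIlow against MHCIIhi macrophages (-0.21) and the tumour effect of neutrophils minus macrophages (Rac2 -0.06, Cyba 0.04) or monocytes (Ncf1 -0.00). Without tumour pool VII 4 did, tumour against LP MHCIIhi macrophages (Rac1 0.10, Rac2 0.07), Rac1 in tumour MHCIIlow against MHCIIhi macrophages (-0.09) and the Rac2 tumour effect of neutrophils minus macrophages (-0.14). Of these sign changes 5 were of called values (Cyba and Hvcn1 in neutrophils). With 1 library left out 21 values changed sign, none of them called. In tumour against LP the ranges were -1.49 to 0.10 (Rac1) and -0.36 to 0.07 (Rac2) in MHCIIhi macrophages and -0.08 to 0.25 (Ncf4) in monocytes. In neutrophils they were -0.74 to 0.86 (Rac1, LP, against macrophages) and -0.06 to 0.36 (Hvcn1, tumour, against monocytes). Against monocytes they were -0.16 to 0.26 (Cyba, LP MHCIIhi), -0.08 to 0.40 (Cyba, LP MHCIIlow), -0.35 to 0.09 (Cyba, tumour MHCIIhi), -0.15 to 0.28 (Cyba, tumour MHCIIlow) and -0.09 to 0.31 (Ncf1, tumour MHCIIlow). Between MHCIIlow and MHCIIhi macrophages they were -0.05 to 0.31 (Cyba, LP) and, in tumours, -0.02 to 0.33 (Cyba), -0.20 to 0.04 (Hvcn1), -0.04 to 0.29 (Ncf4), -0.76 to 0.96 (Rac1) and -0.05 to 0.38 (Rac2). For differences of the tumour effect they were -0.10 to 0.25 (Cyba, MHCIIlow minus MHCIIhi), -0.28 to 0.11 (Cyba) and -0.09 to 0.13 (Rac2) for neutrophils minus macrophages, and -0.19 to 0.21 (Ncf1) and -0.29 to 0.09 (Rac2) for neutrophils minus monocytes. The replicate block by donor number added 1 call, Cyba in tumour neutrophils against monocytes (0.63, adjusted p = 0.0428), and changed no other. The cause was not tested for any of these. With 3 libraries a group, Rac1 differences of the size of its SE, 0.74, could not be resolved.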

Other observations

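The 3 genes most alike Rac1 over the libraries also stood low in tumour MHCIIhi macrophage pool VII and high in LP neutrophil pool V. Yrdc, a tRNA modification gene, held 0.07 log2 RPKM in the former against 2.46 and 2.61 in pools I and V, and 3.38 in the latter against 1.76 and 0.59 in pools III and IV. Tmed7, a cargo receptor of the secretory pathway, held 1.93 against 2.99 and 3.67, and 4.01 against 1.92 and 1.98. Clptm1l held 3.02 against 4.81 and 5.46, and 5.13 against 3.95 and 3.11. Tumour MHCIIlow macrophage pool VII, also low in Rac1, was less alike. There Yrdc held 1.69 against 2.26 and 2.88 in pools I and V, and Clptm1l 4.59 against 5.24 and 5.77. Tmed7, at 2.61, lay between the 2.44 of pool I and the 3.53 of pool V. These genes were picked for their likeness to Rac1, so their values describe the libraries and test nothing.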
